A study of Homo sapiens with 40 samples.

Results

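The genes described here encode 10 DEAD-box RNA helicases, DDX39B, DDX39A, DDX6, DDX5, DDX17, DDX21, DDX1, DDX24, DDX46 and DDX47, 10 of the 60279 genes listed in each count table. They were chosen by name, because DDX39B was low in Takara cells and DDX6 was nearly absent from NEB cells in these same data. The values of DDX39B and DDX6 between protocols are therefore a description and not a finding, and no test was made. The cells were T47D, a hormone receptor-positive human breast cancer cell line, at passage 10, sorted singly as EpCAM-positive and CD49f-positive cells. The labels name no difference in treatment, genotype or time between them, and the groups are 3 full-length library protocols. These were G&T, the non-commercial genome and transcriptome method in which poly(A) RNA is first pulled away from the DNA (13 cells), Takara, the SMART-seq HT kit (13 cells), and NEB, the NEBNext Single Cell/Low Input kit (14 cells). Final libraries were made with Nextera XT in G&T and Takara and with the kit's own reagents in NEB. Kit, lysis buffer and run changed together with the protocol, NEB cells had more PCR cycles, and these cannot be told apart. The labels name no separate cultures, so each protocol is 1 sample, and its cells share 1 run rather than repeating the protocol. After the study's thresholds (at least 1000 genes, a library of at least 600000 reads, at most 30% mitochondrial and 25% reads of ERCC, the spiked-in control RNAs), 11 cells of each protocol remained, 33 of 40.

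DEAD-box helicases use ATP to pry apart short RNA duplexes and to strip proteins from RNA, and they act at nearly every step in the life of an RNA. All share a helicase core of conserved motifs, of which motif II binds and hydrolyses ATP and gives the family its name, from the one-letter code Asp-Glu-Ala-Asp. DDX39B (also UAP56) and its close paralogue DDX39A load onto spliced mRNA with the TREX complex and hand it to the export receptor. DDX6 sits in P-bodies, where it represses translation and activates decapping. DDX5 and DDX17 are paralogues that act in splicing, in transcription and with the microRNA-processing Microprocessor. DDX21, DDX24 and DDX47 work in the nucleolus on ribosomal RNA, DDX46 remodels the U2 snRNP at the branch site, and DDX1 belongs to the tRNA ligase complex.

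The motif II stretch shows what the 10 genes share and where they part. Each line is 36 bases of the coding sequence of the canonical transcript (GENCODE release 44, GRCh38), 5′ to 3′ on the coding strand, with the 4 codons of motif II in capitals.

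DDX39B: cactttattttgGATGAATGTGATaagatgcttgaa

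DDX39A: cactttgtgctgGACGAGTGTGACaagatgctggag

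DDX6: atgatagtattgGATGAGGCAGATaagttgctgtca

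DDX5: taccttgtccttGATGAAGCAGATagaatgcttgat

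DDX17: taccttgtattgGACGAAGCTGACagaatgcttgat

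DDX21: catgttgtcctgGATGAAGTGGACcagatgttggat

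DDX1: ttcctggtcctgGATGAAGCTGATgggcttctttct

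DDX24: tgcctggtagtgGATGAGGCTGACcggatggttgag

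DDX46: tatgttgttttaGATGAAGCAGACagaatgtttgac

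DDX47: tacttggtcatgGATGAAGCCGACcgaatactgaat

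In 7 genes the third of these codons encodes alanine. In DDX39B and DDX39A it is TGT, for cysteine, and in DDX21 it is GTG, for valine. The capitals of DDX39B lie at chr6:31536519-31536530 (minus strand, exon 5 of 11) and those of DDX39A at chr19:14411008-14411019 (minus strand, exon 5 of 11). In DDX6 they are split by an intron, between exons 7 and 8 of 14, within chr11:118760039-118763217 on the minus strand. DDX39B and DDX39A were identical at 80.0% of 1281 aligned coding bases, and DDX5 and DDX17 at 70.0% of 1820. The longest stretch of letters that both transcripts of a pair share was 26 bases in each pair, and none reached 50.

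Reads on genes per kept cell ranged from 658154 to 1166633 in G&T, while Takara cells had 818512 to 1287911 and NEB cells 624772 to 963816. Levels are given as counts per 1000000 reads on genes (CPM), pooled over the 11 cells with an exact 95% Poisson interval, and then as the lowest, median and highest cell. Reads without molecular identifiers are not independent molecules, so intervals and limits cover counting error only. A pooled count of 0 allows up to 0.316 CPM in G&T, 0.256 CPM in Takara and 0.376 CPM in NEB (3 reads). Of 7 T47D markers, 7 were found in every G&T and Takara cell and 6 in every NEB cell, EPCAM having no read in 1 NEB cell. Of the markers of other cell types, PTPRC, PECAM1, KRT5 and KRT14 had at most 12 reads in a protocol, while VIM reached 18.1 CPM in NEB, with reads in 3 cells, and COL1A1 lay between 10.8 and 12.6 CPM.

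Together the 10 genes took 1917 CPM in G&T and 1975 CPM in Takara, and 1566 CPM in NEB. The sum ranged from 1509 to 2251 CPM over G&T cells, from 1347 to 2505 over Takara cells and from 476 to 2900 over NEB cells, so the NEB cells spread most widely and spanned both other ranges. A G&T cell held reads of 9 of the 10 genes in every case. Takara cells held 8 to 10, and NEB cells 4 to 9 with a median of 7. The sums hid large and opposite differences between single genes.

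**Figure D1:**
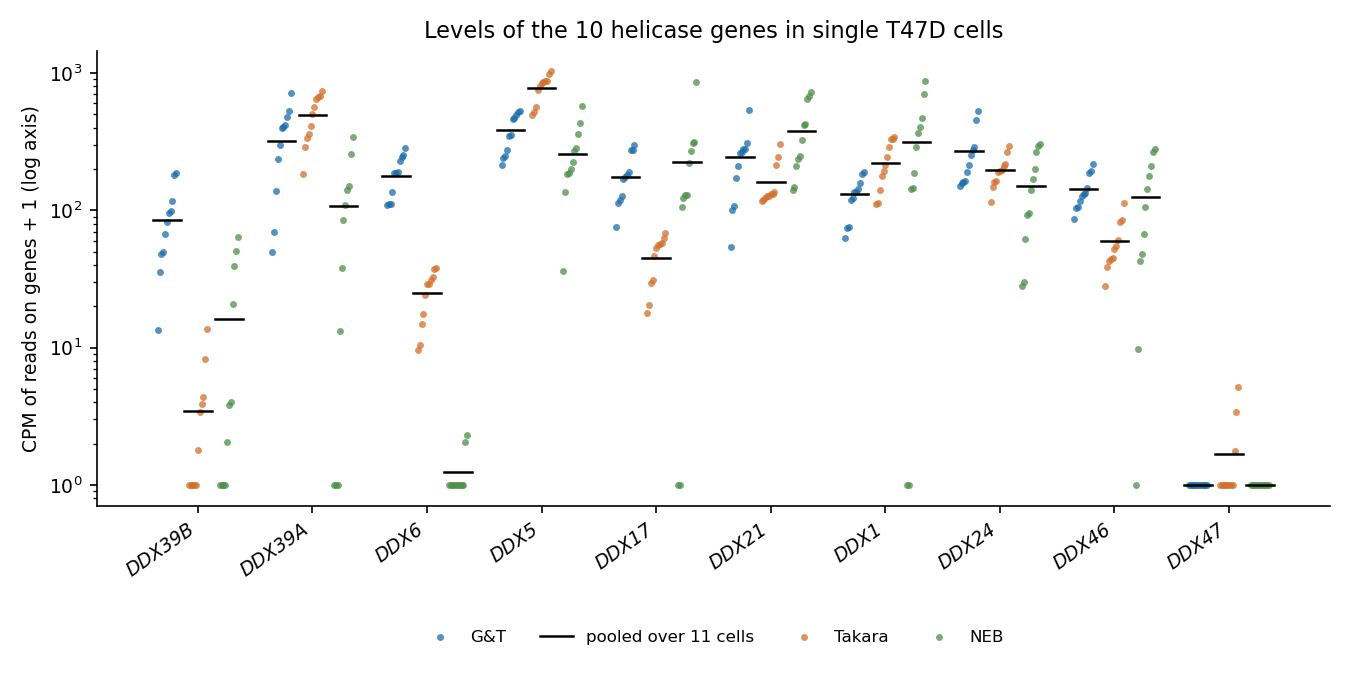
CPM + 1 (log axis) of each helicase gene in each of 33 kept T47D cells, 11 per protocol, with a black line for the level pooled over the 11 cells. DDX39B stood at 83.8 CPM in G&T and at 2.48 in Takara, DDX6 stood at 176, 23.8 and 0.251 CPM in G&T, Takara and NEB, and points at 1 are cells without a read.

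Before the levels are read, it matters which bases of a gene the counts can see. The counts came from STAR, whose gene counter assigns a read only if it overlaps exons of 1 gene and sets other reads aside as ambiguous. In GENCODE release 44, all 1681 bases of the canonical DDX39B mRNA also lie in exons of ATP6V1G2-DDX39B, a readthrough gene that joins DDX39B to its neighbour ATP6V1G2. That readthrough gene is listed in the tables and had 0 reads in all cells of all 3 protocols. For DDX47, 1811 of 1817 canonical bases lie in exons annotated to APOLD1, which had 11 G&T reads, 10 Takara reads and 0 NEB reads. With this annotation the counts of DDX39B and DDX47 do not hold reads that lie wholly in their main mRNA, apart from 6 bases of DDX47. They can come only from other annotated exons. For DDX39B these are 4850 bases, of which 3878 belong to transcripts annotated with a retained intron and to no protein-coding transcript, and 673 belong to protein-coding transcripts. For DDX47 they are 3199 bases, 2717 of them in retained-intron transcripts only and 6 in protein-coding ones. The release that the authors used is not given in the sources used here, nor is the strand setting of the count.

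The other 8 helicase genes were nearly free of such overlap. DDX24 shared 644 of 5573 canonical bases with OTUB2, DDX6 shared 51 of 6128, DDX17 shared 10 of 4761, and DDX39A, DDX5, DDX21, DDX1 and DDX46 shared none. Among 27 further DEAD-box genes, EIF4A1 alone had under 10% of its canonical bases free, at 0%. EIF4A1 encodes a cap-binding complex helicase needed for most translation, and its G&T, Takara and NEB levels were 1.26, 0.512 and 3.39 CPM. Its paralogue EIF4A2, with a canonical transcript of 1886 bases against 1758 and with 95.7% of them free, stood at 451, 357 and 1011 CPM. Reads set aside as ambiguous made up 7.04% to 10.5% of all reads of a G&T cell, 10.0% to 11.2% of a Takara cell and 5.41% to 6.06% of a NEB cell.

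**Figure D2:**
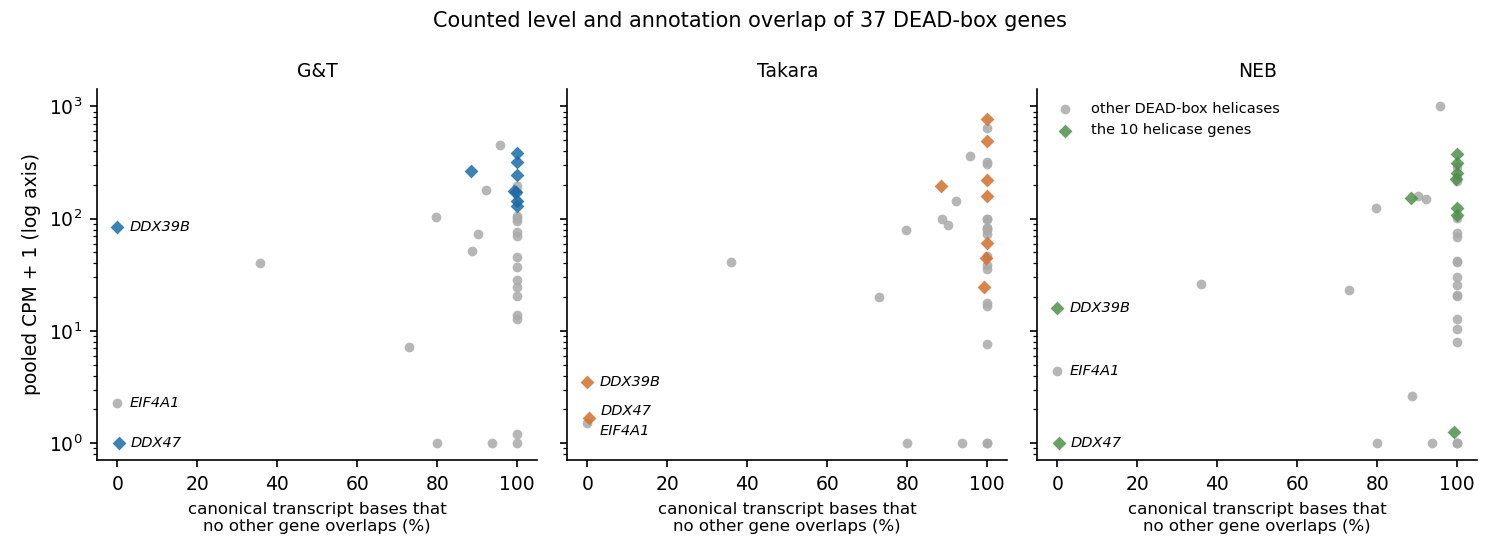
Pooled CPM + 1 (log axis) of 37 DEAD-box genes against the percentage of canonical transcript bases that no other listed gene overlaps, 1 panel per protocol, with diamonds for the 10 helicase genes described here. The 3 genes at the left edge, with under 10% of their bases free, are DDX39B, DDX47 and EIF4A1. In NEB the diamond at the lower right is DDX6, with 99.2% free.

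The export helicases DDX39B and DDX39A had a different order of protocols. DDX39B (ENSG00000198563, chr6:31530219-31542448, minus strand) was counted at 83.8 CPM in G&T (78.1 to 89.8, 796 reads), at 2.48 CPM in Takara (1.66 to 3.55, 29 reads) and at 15.0 CPM in NEB (12.5 to 18.0, 120 reads). The lowest, median and highest cell stood at 12.4, 81.8 and 186 CPM in G&T, at 0, 0.808 and 12.6 CPM in Takara, and at 0, 2.80 and 63.0 CPM in NEB. Every G&T cell held DDX39B reads, against 6 Takara cells and 7 NEB cells. The highest Takara cell, E2, held 12 of the 29 Takara reads and just passed the lowest G&T cell, so the ranges met. The pooled level was 33.9-fold higher in G&T than in Takara (95% interval of the read ratio 23.4 to 50.9), a log2 ratio of 4.61 on CPM + 1. It was the largest ratio in that direction among the 9060 genes with at least 10 CPM in 1 or both protocols, and it was 5.04 without Takara cell E2. G&T stood 5.57-fold above NEB (4.59 to 6.80), and NEB stood 6.08-fold above Takara (4.03 to 9.46), an order of Takara and NEB that turned when counts were scaled to ERCC reads. By the annotation above, these values describe exons outside the main DDX39B mRNA.

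DDX39A (ENSG00000123136, chr19:14408798-14419383, minus strand), whose exons no other listed gene overlaps, was not lower in Takara than in G&T. It was counted at 321 CPM in G&T (309 to 332), at 492 CPM in Takara (479 to 504) and at 107 CPM in NEB (99.6 to 114). Its cells ran from 48.8 through a median of 398 to 709 CPM in G&T, from 184 through 506 to 734 CPM in Takara, and from 0 through 84.3 to 339 CPM in NEB, where 3 cells had no read. All 3 ranges overlapped. DDX39A was 3.01-fold higher in G&T than in NEB (2.79 to 3.25) and 4.61-fold higher in Takara than in NEB (4.29 to 4.96), while Takara stood 1.53-fold above G&T (1.47 to 1.60). DDX39B made up 20.7% of the reads of both paralogues in G&T (exact binomial interval 19.4% to 22.03%), 0.501% in Takara (0.336% to 0.719%) and 12.4% in NEB (10.4% to 14.6%). Single cells ranged from 10.3% to 58.5% in G&T and from 0% to 6.42% in Takara, without overlap. Among the 10 NEB cells with any read of the pair they ranged from 0% to 100%, and 2 cells had reads of DDX39B but none of DDX39A, E1 with 2 reads and H2 with 27. By the annotation above, these shares set exons outside the main DDX39B mRNA against the whole DDX39A mRNA. They do not give the balance of the 2 mRNAs.

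The share of reads outside annotated exons also differed between protocols. Such reads made up 5.46% to 23.2% of all reads of a G&T cell, 1.46% to 7.27% of a Takara cell and 9.39% to 17.6% of a NEB cell. They were fewest in Takara, where DDX39B was lowest too. DDX47, also overlapped by another gene, had 8 reads in Takara and 0 in G&T. The 22 genes with under 10% of canonical bases free had a median log2 ratio of G&T over Takara of -0.19. In the share of reads outside annotated exons the NEB and G&T ranges overlapped, with DDX39B at 15.0 and 83.8 CPM. Within a protocol the DDX39B level and that share had a Pearson r of 0.17 over 11 G&T cells, 0.46 over 11 Takara cells and -0.10 over 11 NEB cells, and the part of such reads in the result was not tested. Searched over every member and protocol, r with that share ran from -0.62 for DDX24 in G&T (Spearman rho -0.61) to 0.77 for DDX17 in G&T (rho 0.80). Leaving out the 2 most distant cells gave -0.54 and 0.76 for these, while DDX21 in Takara went from 0.71 to -0.12. These are extremes picked from many values over 11 cells each. With the 4 G&T cells below 10% only, an alternative added after the data were seen, the log2 ratio of DDX39B between G&T and Takara was 4.43. These 4 cells, at 5.46% to 8.82%, still lay above the Takara median of 2.65%. The ratio therefore does not compare cells alike in that share, and nothing is read from it about such reads. With the same 4 G&T cells DDX39A stood at -1.46 for G&T over Takara and at 0.73 for G&T over NEB. The DDX39B antisense gene DDX39B-AS1 had 39 reads in G&T, 36 of them in cell E2, and none in Takara or NEB. Without a stated strand setting, reads of a gene and its antisense partner cannot be told apart.

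DDX6 (ENSG00000110367, chr11:118747763-118791164, minus strand), the P-body helicase, was highest in G&T, lower in Takara and nearly unread in NEB. It was counted at 176 CPM in G&T (168 to 185, 1674 reads), at 23.8 CPM in Takara (21.1 to 26.8, 279 reads) and at 0.251 CPM in NEB (0.0304 to 0.906, 2 reads). The lowest, median and highest cell stood at 109, 185 and 285 CPM in G&T and at 8.55, 28.0 and 36.7 CPM in Takara, and in NEB 9 of 11 cells had no read, the highest standing at 1.32 CPM. No kept cell of one protocol reached the range of another. G&T stood 7.40-fold above Takara (6.52 to 8.43), 703-fold above NEB (194 to 5806, resting on 2 NEB reads), and Takara 94.9-fold above NEB (26.0 to 788). The log2 ratios on CPM + 1 were 2.84, 7.15 and 4.31. Of the genes with at least 10 CPM, 70 of 9060 had a higher ratio between G&T and Takara, 1 of 9119 between G&T and NEB, and 750 of 8955 between Takara and NEB. Thinning every cell to 624772 reads on genes left DDX6 in all 11 Takara cells and in an expected 1.47 NEB cells. In the 3 NEB wells that failed the thresholds, DDX6 had 17 reads in B2 and none in F1 or F2. B2, which failed on ERCC reads (28.4%), thus stood at 37.7 CPM, above the highest kept Takara cell at 36.7 CPM. With all deposited cells the log2 ratio between G&T and NEB was 5.84. The processed pseudogene DDX6P1 had 14 reads in G&T, 12 of them in cell A1, and none in the other protocols.

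The Microprocessor-associated paralogues DDX5 and DDX17 differed in opposite directions in Takara. DDX5 (ENSG00000108654, chr17:64498254-64508199, minus strand) was counted at 381 CPM in G&T (369 to 394), at 780 CPM in Takara (764 to 796) and at 255 CPM in NEB (244 to 266), and every cell held reads. Its cells ran from 211 through 350 to 523 CPM in G&T, from 490 through 845 to 1025 CPM in Takara, and from 35.3 through 225 to 576 CPM in NEB. Takara stood 2.04-fold above G&T (1.97 to 2.13) and 3.06-fold above NEB (2.92 to 3.21), while the ranges of its cells overlapped in both pairs. The gap to G&T was under 2-fold without the mitochondrial genes (log2 ratio of G&T over Takara -0.93) and without G&T cell A1, A2, E2 or H1 or Takara cell B2 or D2 (from -1.10 to -0.96 as each cell was left out). DDX17 (ENSG00000100201, chr22:38483438-38507660, minus strand) was low where DDX5 was high, at 173 CPM in G&T (164 to 181), at 43.8 CPM in Takara (40.1 to 47.7) and at 223 CPM in NEB (212 to 233). Its cells ran from 74.7 through 175 to 298 CPM in G&T and from 16.9 through 52.5 to 67.9 CPM in Takara, without overlap. In NEB they ran from 0, in 2 cells, through 129 to 864 CPM in cell G2, which held 30.4% of the NEB reads. DDX17 was 3.94-fold higher in G&T than in Takara (3.57 to 4.36) and 5.09-fold higher in NEB than in Takara (4.61 to 5.62), the last of which turned when scaled to ERCC reads.

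DDX5 therefore took 68.8% of the reads of the pair in G&T (67.6% to 70.1%), 94.7% in Takara (94.2% to 95.1%) and 53.3% in NEB (51.7% to 54.9%). Takara cells lay between 91.0% and 97.0%, above every G&T cell at 53.9% to 82.2%. NEB cells spread from 10.1% to 100%, and DDX5 exceeded DDX17 in 8 of 11 of them, against 11 of 11 in the other protocols. The median NEB cell stood at 68.3%, beside 65.1% for the median G&T cell and 94.9% for the median Takara cell. The pooled NEB share thus lay below the pooled G&T share, but the median NEB cell did not lie below the median G&T cell. Leaving out NEB cell G2 moved the log2 ratio of DDX17 for G&T over NEB from -0.37 to 0.04.

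**Figure D3:**
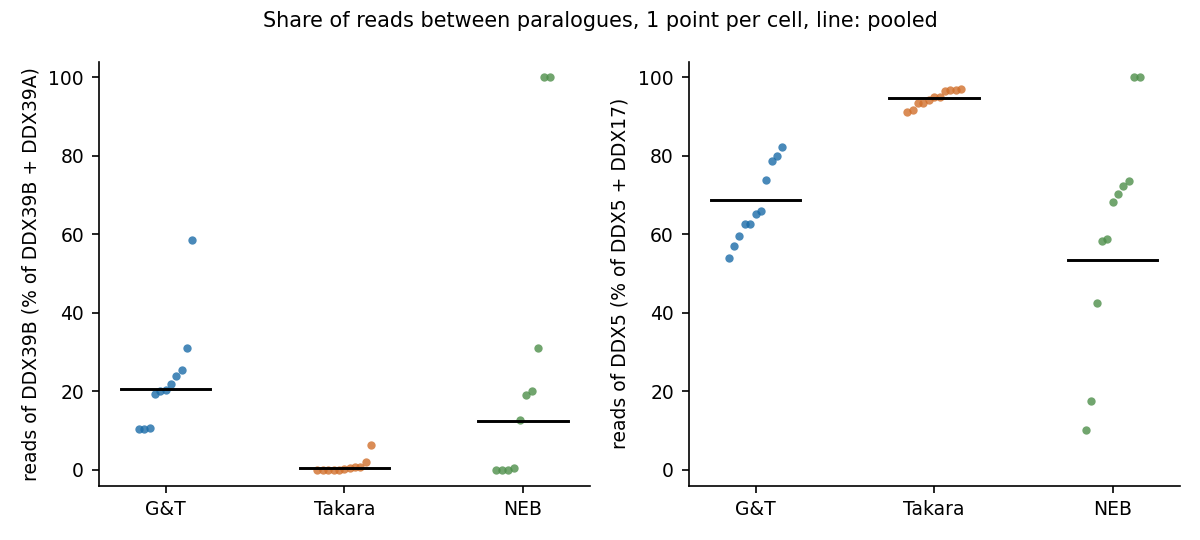
Percentage of reads on DDX39B among DDX39B and DDX39A (left) and on DDX5 among DDX5 and DDX17 (right), 1 point per kept cell with any read of the pair and a line for the pooled share. Takara cells lie below all G&T cells at left (0% to 6.42% against 10.3% to 58.5%) and above them at right, while NEB cells spread up to 100%.

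Of the nucleolar helicases, DDX21 and DDX24 were read in every kept cell and DDX47 almost nowhere. DDX21 (ENSG00000165732, chr10:68956135-68985068, plus strand), which helps ribosomal RNA transcription and processing, stood at 245 CPM in G&T (235 to 255), at 158 CPM in Takara (151 to 166) and at 379 CPM in NEB (366 to 393). Its cells ran from 53.2 through 259 to 534 CPM in G&T, from 115 through 130 to 304 CPM in Takara, and from 140 through 322 to 727 CPM in NEB, and the ranges overlapped. NEB stood 2.40-fold above Takara (2.26 to 2.54), which turned under ERCC scaling. DDX24 (ENSG00000089737, chr14:94048287-94081202, minus strand), a factor of large ribosomal subunit assembly, varied least between protocols, at 267 CPM in G&T (257 to 278), at 195 CPM in Takara (187 to 203) and at 150 CPM in NEB (142 to 159). No pair of protocols reached a 2-fold difference in it, although G&T did over NEB with the 4 G&T cells below 10% (log2 ratio 1.14) and both did over NEB under ERCC scaling (3.53 and 4.07), and its cells ran from 150 to 530 CPM, 115 to 295 CPM and 26.97 to 304 CPM. DDX47 (ENSG00000213782, chr12:12813316-12829981, plus strand) had 8 reads in 3 Takara cells, 0.683 CPM (0.295 to 1.35), and 0 reads in G&T and NEB. As 1811 of its 1817 canonical bases were overlapped, these counts do not give the level of its mRNA.

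DDX1, the tRNA ligase helicase, was highest in NEB, and DDX46, the branch-site helicase, was lowest in Takara. DDX1 (ENSG00000079785, chr2:15591178-15634346, plus strand) stood at 129 CPM in G&T (122 to 137), at 220 CPM in Takara (212 to 229) and at 313 CPM in NEB (300 to 325). Its cells ran from 62.0 through 134 to 190 CPM in G&T, from 111 through 211 to 342 CPM in Takara, and from 0, in 2 cells, through 289 to 872 CPM in NEB. NEB stood 2.41-fold above G&T (2.25 to 2.59), a direction that turned when scaled to ERCC reads. DDX46 (ENSG00000145833, chr5:134758771-134855133, plus strand) stood at 141 CPM in G&T (134 to 149), at 59.2 CPM in Takara (54.9 to 63.8) and at 124 CPM in NEB (117 to 132). Its cells ran from 85.1 through 129 to 215 CPM in G&T, from 26.9 through 51.5 to 113 CPM in Takara, and from 0, in 1 cell, through 105 to 277 CPM in NEB. G&T stood 2.38-fold above Takara (2.17 to 2.62), and NEB stood 2.10-fold above Takara (1.90 to 2.31), which turned under ERCC scaling and which was under 2-fold without Takara cell G1 or without NEB cell B1, C2, E2 or H2 (log2 ratio of Takara over NEB from -1.22 to -0.88 as each cell was left out).

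Relative to the mean, spread between cells was widest in NEB for all genes but DDX39B and DDX47. DDX39B varied most in Takara, and for DDX21 the spread in NEB was only just above that in G&T. The coefficient of variation of CPM over 11 cells lay between 29.8% for DDX46 and 64.0% for DDX39B in G&T. In Takara it lay between 23.2% for DDX5 and 43.3% for DDX46 among the 8 genes with reads in every cell, with 150% for DDX39B. In NEB it was 56.6% for DDX21 (56.4% in G&T) and 56.9% for DDX5, 107% for DDX17, 110% for DDX39A and 145% for DDX39B. The 224% of DDX6 in NEB rests on 2 reads, and the 150% of DDX39B in Takara on 29. All 3 genes with reads in every NEB cell, DDX5, DDX21 and DDX24, were also found in every G&T and Takara cell.

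Set beside all genes, the calls were frequent everywhere. Of 9 helicase genes with at least 10 CPM in a protocol of the pair (all but DDX47), 4 were at least 2-fold higher in G&T than in Takara (DDX39B, DDX6, DDX17 and DDX46), where 19.0% of all 9060 genes were, and 1 was higher in Takara (DDX5), where 20.4% were, so that 5 differed beside 39.4%. Between G&T and NEB, 3 were higher in G&T (DDX39B, DDX39A and DDX6), beside 39.6% of 9119 genes, and 1 in NEB (DDX1), beside 23.0%, so that 4 differed beside 62.5%. Between Takara and NEB, 3 were higher in Takara (DDX39A, DDX6 and DDX5), beside 40.3% of 8955 genes, and 4 in NEB (DDX39B, DDX17, DDX21 and DDX46), beside 25.6%, so that 7 differed beside 65.9%. The list was picked with DDX39B and DDX6 in view, so nothing is read from these counts about the helicases as a group. By the annotation above, the DDX39B calls describe exons outside its main mRNA. The medians of the 9 log2 ratios were 0.62, 0.58 and -0.50, against -0.09, 0.38 and 0.38 over all genes. The ranges of the cells did not overlap for 2 genes between G&T and Takara, DDX6 and DDX17, both higher in G&T, as for 1.06% of all genes higher in G&T and 2.04% higher in Takara (3.10% in all). Between G&T and NEB they did not for DDX6, higher in G&T, as for 5.15% of all genes in that direction and 1.67% in the other (6.82% in all). Between Takara and NEB they did not for DDX6, higher in Takara, as for 12.1% in that direction and 2.43% in the other (14.6% in all).

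**Figure D4:**
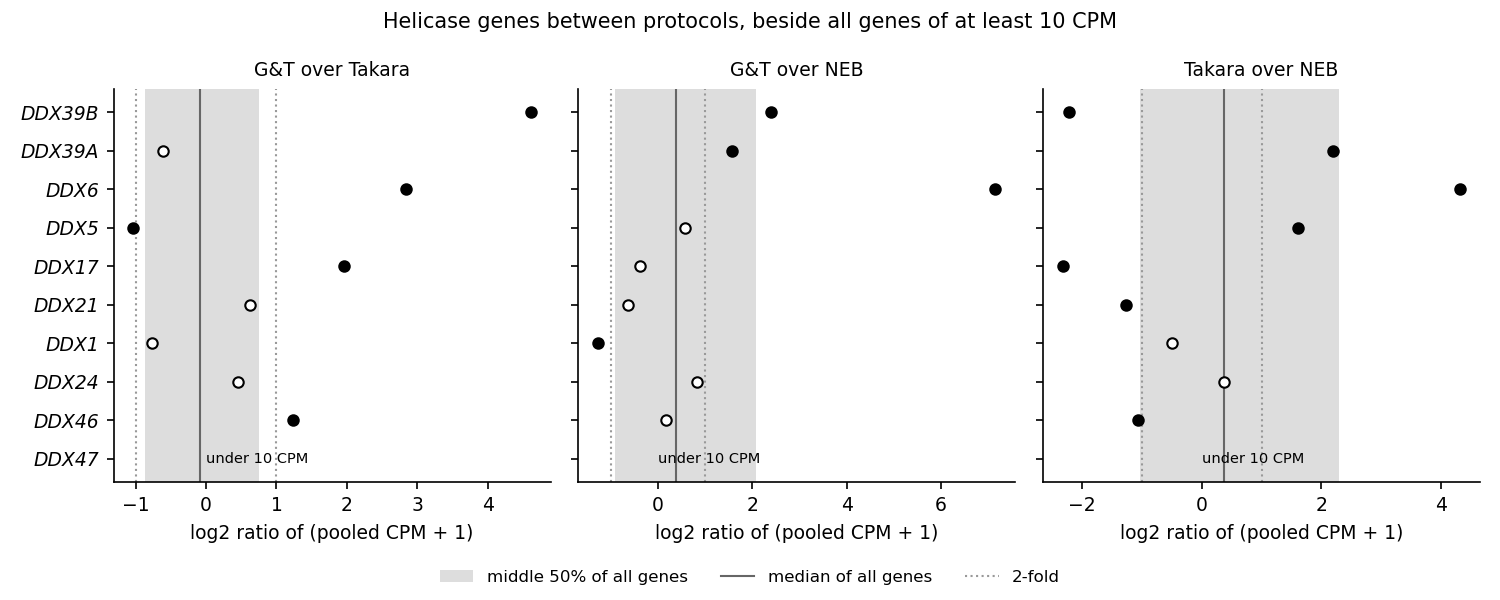
Log2 ratio of pooled CPM + 1 of each helicase gene for 3 pairs of protocols, with filled points for differences of at least 2-fold (dotted lines), a grey band for the middle 50% of all genes with at least 10 CPM and a grey line for their median. DDX39B (4.61) and DDX6 (2.84) stand far to the right for G&T over Takara, and DDX6 (7.15) for G&T over NEB. Scaling to ERCC reads turns the direction of DDX21 and DDX24 in the left panel, of DDX1, DDX17 and DDX21 in the middle panel and of DDX39B, DDX17, DDX21, DDX46 and DDX1 in the right panel.

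These ratios are relative to the reads on genes of each protocol. G&T cells had 51.8 reads on genes per ERCC read, Takara cells 103 and NEB cells 7.64. Scaled to ERCC reads, 9 helicase genes were at least 2-fold higher in G&T than in NEB and 8 in Takara than in NEB, as were 86.7% and 92.9% of all genes. Between G&T and Takara the log2 ratios of DDX17 and DDX46 became 0.98 and 0.26. Under that scaling 5 differences of at least 2-fold turned direction, those named with their genes above, as did 5 smaller ones, of DDX21 and DDX24 between G&T and Takara, of DDX17 and DDX21 between G&T and NEB and of DDX1 between Takara and NEB. DDX6 kept its order of G&T, Takara and NEB with log2 ratios of 1.87 and 5.55 between neighbours.

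Transcript length moved with the ratios too. Over all genes the median log2 ratio of G&T over Takara was -0.48 for canonical transcripts under 2000 bases and 0.84 for those of at least 6000, and for Takara over NEB it was 1.01 and -0.90. Lengths in brackets are those of the canonical transcripts. The genes DDX6 (6128 bases), DDX46 (5674) and DDX17 (4761) were at least 2-fold higher in G&T than in Takara. DDX24 (5573) and DDX21 (4664) were higher by less, which turned under ERCC scaling. DDX39A (1498), DDX1 (2484) and DDX5 (3684) were lower in G&T. DDX39B (1681) was short but higher in G&T than in Takara, with a log2 ratio of 4.61. By the annotation above, its counts came from other exons. For G&T over NEB, genes of at least 6000 bases had a median log2 ratio of 0.09 (quartiles -0.998 and 1.47), and DDX6 stood at 7.15. DDX6 was also higher in Takara than in NEB, with a log2 ratio of 4.31. The genes of that length had a median of -0.90 in that pair (quartiles -1.89 and 0.55). The part of length in these values was not tested.

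Per length, DDX39A led the members in G&T and Takara. Pooled CPM per kb of canonical transcript placed the 8 genes with at least 10% of their bases free in the order DDX39A (214), DDX5 (103), DDX21 (52.5), DDX1 (52.1), DDX24 (47.9), DDX17 (36.2), DDX6 (28.8) and DDX46 (24.9) in G&T. In Takara DDX39A (328), DDX5 (212) and DDX1 (88.7) came first and DDX6 (3.89) last. In NEB the order began with DDX1 (126), DDX21 (81.4), DDX39A (71.2) and DDX5 (69.1) and ended with DDX6 (0.0409). The gap between neighbours in the order exceeded the larger SD over cells only between DDX5 and DDX21 in G&T and only between DDX46 and DDX6 in NEB. In Takara it did so for 4 of 7 neighbours (DDX5 and DDX1, DDX1 and DDX24, DDX21 and DDX46, DDX17 and DDX6).

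**Figure D5:**
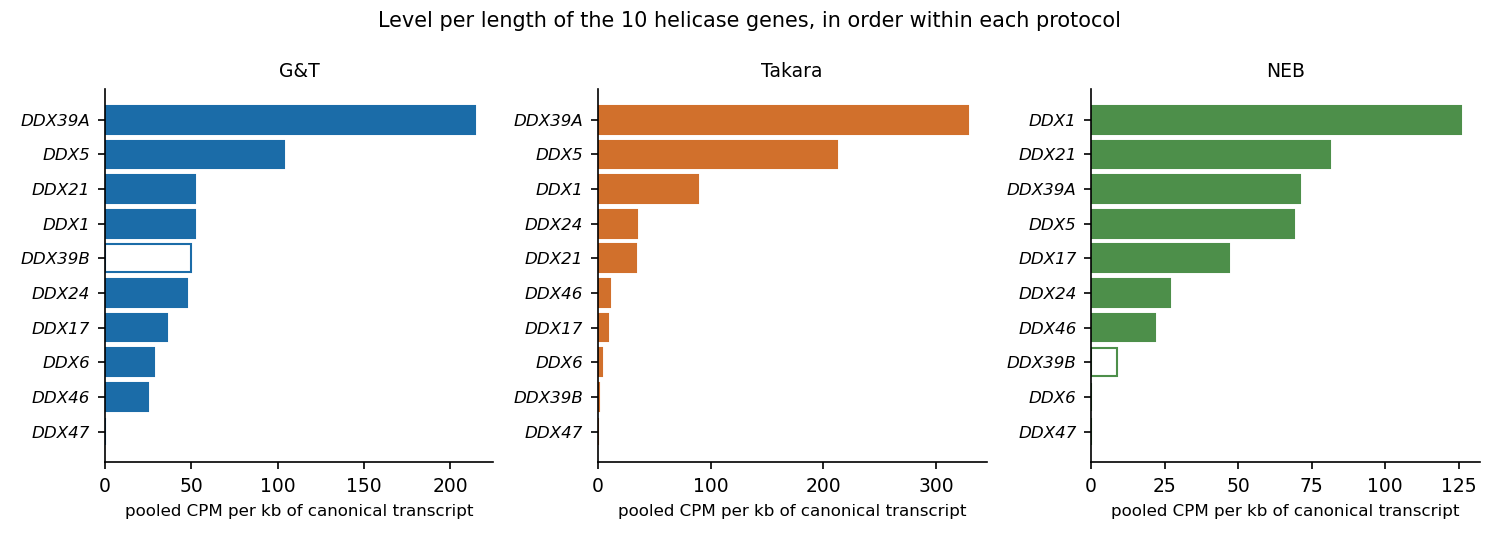
Pooled CPM per kb of canonical transcript of the 10 helicase genes, ordered within each protocol, with hollow bars for DDX39B and DDX47, whose canonical bases are overlapped by another gene. DDX39A leads in G&T (214) and Takara (328) and DDX1 in NEB (126), and DDX6 is last of the filled bars in Takara and NEB. The bars carry no error, and each axis has its own scale.

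The genes whose pattern was most like DDX39B and DDX6 over the 33 cells followed the protocols. Among 9609 genes compared on log2(CPM + 1), DDX39B correlated most with PRKDC (Pearson r 0.79), AP1S1 (0.77) and ENSG00000274627 (0.74). Within G&T cells r with PRKDC was 0.47, within Takara cells -0.25 and within NEB cells 0.77. DDX6 correlated most with the mitochondrial ribosomal RNA MT-RNR2 (r 0.96), at 76614, 20971 and 3829 CPM in the order G&T, Takara, NEB, with ARHGDIA (0.96) at 39.7, 11.9 and 0 CPM and with ENSG00000130723 (0.95) at 98.5, 19.0 and 0 CPM. Within G&T cells r with MT-RNR2 was 0.67, within Takara -0.11 and within NEB 0.04. In the order G&T, Takara, NEB, r within a protocol was 0.54, -0.07 and 0.56 for AP1S1 and 0.74, -0.21 and 0.27 for ENSG00000274627. In G&T and Takara it was 0.26 and 0.56 for ARHGDIA and -0.12 and -0.06 for ENSG00000130723, neither of which had NEB reads. DDX39B and DDX6 were picked for a gap between protocols, so genes with a like gap were bound to rank high. The r over 33 cells therefore describes that gap and does not show covariation between cells of a protocol.

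Of the 27 other DEAD-box genes, some were higher and some lower in each pair of protocols. Of 22 with at least 10 CPM, 1 was at least 2-fold higher in G&T than in Takara and 5 in Takara, 4 were higher in G&T than in NEB and 3 in NEB, and 8 were higher in Takara than in NEB and 4 in NEB. The shares of all genes in the same order were 19.0% and 20.4%, 39.6% and 23.0%, and 40.3% and 25.6%. The median log2 ratios of the 22 were -0.24, -0.08 and 0.25, against -0.09, 0.38 and 0.38 over all genes. DDX54, a nucleolar helicase, had the largest log2 ratio of Takara over NEB among them (5.24), at 98.4 CPM against 1.63 CPM (13 reads in 2 cells), and stood at 50.4 CPM in G&T. EIF4A3, the exon junction complex helicase, was lower in G&T (195 CPM) than in Takara (637 CPM), and EIF4A2 reached 1011 CPM in NEB. At least 1 read in every cell was found for 17 of the 27 in G&T and 21 in Takara, but for 5 in NEB.

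The partners of DDX39B in TREX and mRNA export had levels in both directions. Of 13 genes with at least 10 CPM, 2 were at least 2-fold higher in G&T than in Takara and 4 in Takara (19.0% and 20.4% of all genes), with a median log2 ratio of -0.43 against -0.09 over all genes. Between G&T and NEB, 5 were higher in G&T and 1 in NEB (39.6% and 23.0% of all genes), and between Takara and NEB, 8 in Takara and 3 in NEB (40.3% and 25.6%). In the order G&T, Takara, NEB, the THO complex subunit THOC6 stood at 20.5, 88.3 and 0.376 CPM (3 NEB reads in 2 cells). THOC2, the THO scaffold, stood at 113, 40.1 and 251 CPM, and the export adaptor FYTTD1 at 424, 216 and 456 CPM.

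The decapping and P-body partners of DDX6 were also not uniform. Of 16 genes, 7 were at least 2-fold higher in G&T than in Takara and 1 in Takara, beside 19.0% and 20.4% of all genes, with a median log2 ratio of 0.72. Of 17, 7 were higher in G&T than in NEB and 4 in NEB, beside 39.6% and 23.0%. Of 15, 4 were higher in Takara than in NEB and 4 in NEB, beside 40.3% and 25.6%. The decapping enzyme DCP2 was highest in NEB, where DDX6 had 2 reads, at 1226 CPM against 244 in G&T and 148 in Takara. ATXN2L, a P-body and stress granule protein, followed the order of DDX6 with 52.1, 6.06 and 0 CPM. TNRC6B, which bridges Argonaute to deadenylation, stood at 54.3, 12.2 and 138 CPM.

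Among the 8 Microprocessor genes that go with DDX5 and DDX17, 2 were at least 2-fold higher in G&T than in Takara and 2 in Takara, and 4 were higher in G&T than in NEB and 2 in NEB. Of 7, 4 were higher in Takara than in NEB and 1 in NEB. The shares of all genes were those given for the other lists, 19.0% and 20.4%, 39.6% and 23.0%, and 40.3% and 25.6%, and they hold for the lists that follow. HNRNPH1 reached 1349 CPM in NEB against 170 in G&T and 108 in Takara, and TAF15 was lowest there, at 3.26 CPM against 93.5 in G&T and 29.8 in Takara. The 5 tRNA ligase genes that go with DDX1 included RTRAF at 270, 294 and 322 CPM, FAM98B at 35.5, 3.84 and 13.2 CPM and ZBTB8OS at 72.8, 45.1 and 160 CPM. Between G&T and Takara 1 of the 5 was higher in each direction, between G&T and NEB 1 was higher in G&T and 2 in NEB, and between Takara and NEB 2 were higher in NEB.

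Around DDX46, 3 of 12 U2 and branch-site genes were at least 2-fold higher in G&T than in Takara and 1 in Takara, 6 of 13 were higher in G&T than in NEB, where 39.6% of all genes were, and 5 of 13 in Takara than in NEB, where 40.3% were. None was higher in NEB, where 23.0% and 25.6% of all genes were. SF3B1, the core branch-site protein, stood at 236, 185 and 324 CPM, SF3B4 at 39.3, 148 and 26.6 CPM, and U2AF2 at 43.5, 11.2 and 0.502 CPM (4 NEB reads in 1 cell). Of the 12 nucleolar assembly genes around DDX21, DDX24 and DDX47, 1 was higher in G&T than in Takara and 1 in Takara, 5 were higher in G&T than in NEB and 2 in NEB, and 4 were higher in Takara than in NEB and 1 in NEB. NPM1 stood at 1295, 1160 and 1736 CPM, and BOP1, which acts in the large subunit with PES1 and WDR12, at 33.4, 135 and 1.13 CPM (9 NEB reads in 1 cell). The counts of these lists are relative to reads on genes, and scaling to ERCC reads moved the median log2 ratio of all genes to -1.06, 2.84 and 3.81 for G&T over Takara, G&T over NEB and Takara over NEB.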

How the data were processed

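The authors trimmed paired-end MiSeq reads with Trim Galore, aligned them to GRCh38 with STAR and merged the reads counted per gene into 1 table of raw counts per protocol, as deposited. All columns were matched to samples by name (0 left over). The unassigned rows, reads outside features, ambiguous, multimapped and unmapped (27.4% to 40.6% of the reads of a kept G&T cell, 17.7% to 26.1% in Takara, 21.8% to 29.0% in NEB), were kept out of library sizes. Depth and intervals are given with the levels. Levels are counts summed over the kept cells and given as CPM, and log2 ratios were taken after adding 1 CPM to each level. Ratio intervals are exact conditional binomial ones. A call is a difference of at least 2-fold among genes with at least 10 CPM in 1 or both protocols. With 1 sample per protocol no test was made.

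The members and the pathway lists were chosen with earlier results of these data known. Named are all members, and of each list the gene with the highest CPM and those with the largest positive and negative log2 ratio, the 3 genes most like DDX39B and DDX6, and genes that overlap or are pseudogenes of a member. Exons came from GENCODE release 44, and the authors may have counted with another release. Python 3.11.15, numpy 2.4.6, pandas 2.3.3, scipy 1.17.1, Biopython 1.88, matplotlib 3.10.9 and, for TMM factors, edgeR 4.0.16 in R 4.3.3 were used. The pooled ratios, their calls and the ratio intervals were tested on simulated Poisson counts, and the thinning on random draws from a kept cell. Other steps were not tested in this way.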

Additional observations from a re-analysis of the deposited data

Results flagged for a closer look

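Reads on the helicase genes also lay in cells and on genes outside the comparisons. Of the cells that failed the thresholds, G&T C2 held 707 reads on the 10 genes and G&T F1 1165, and NEB B2 held 447 and NEB F2 1254. NEB B2 had 17 of its reads on DDX6, more than the 2 reads of the 11 kept NEB cells together, and NEB F2 had 0 on DDX6 and 350 on DDX21. G&T C2 had no read of DDX39B or DDX39A and 97 of DDX6. Takara C2, Takara F1 and NEB F1 held 0, 1 and 3 reads on the 10 genes. DDX39B-AS1 had 39 reads in G&T cells, the pseudogene DDX6P1 had 14, and the pseudogene DDX6P2 had 5, all of the last in the removed G&T cell F1. No other pseudogene named after a member, DDX39BP1, DDX39BP2, DDX39AP1 or DDX5P1, had a read in any cell.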

How the results depend on the processing

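No paired analysis was possible because the results come from no test and the cells of different protocols share only well positions. Scaling to ERCC reads turned 5 differences of at least 2-fold, with log2 ratios of 1.47 for DDX1 between G&T and NEB and, of Takara over NEB, 0.88 for DDX39B, 1.38 for DDX17, 2.47 for DDX21 and 2.62 for DDX46, and 5 smaller ones. It gave 2 members higher in G&T and 3 in Takara for that pair, 9 in G&T against 0 in NEB, and 8 in Takara against 0 in NEB, beside 4.98% and 52.2%, 86.7% and 1.47%, and 92.9% and 1.07% of all genes. DDX5, close to 2-fold between G&T and Takara, made that count unstable: 0 members were higher in Takara without the mitochondrial genes (18.2% of all genes), 0 to 1 when 1 cell was left out (0 without G&T A1, A2, E2 or H1 or Takara B2 or D2), and 2 with the 4 G&T cells under 10% of reads outside features, where DDX39A joined (33.6% of all genes, against 20.4% with all kept cells). Without the most extreme cell of each protocol, the ranges of 5 members did not overlap between G&T and Takara (6.78% of all genes, from 3.10%), of 1 between G&T and NEB (13.6%, from 6.82%) and of 3 between Takara and NEB (24.6%, from 14.6%). Median-of-ratios factors moved the median of all genes between G&T and NEB from 0.38 to 0.16, and 0 of 27 member ratios crossed 2-fold under them or under TMM factors. The DDX6 ratio of G&T over NEB ran from 5.11 with a pseudocount of 5 CPM to 8.97 with 0.1 CPM. At least 5 reads were held by 2 Takara cells for DDX39B and by 0 NEB cells for DDX6. The values of DDX39B in Takara, DDX6 in NEB and DDX47 in Takara rest on 29, 2 and 8 reads, which limits their precision. With the length of all annotated exons in place of the canonical transcript, DDX39A stood at 83.0 CPM per kb (G&T), 127 (Takara) and 27.6 (NEB).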
